A study of Mus musculus with 23 samples.

Results

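Small nucleolar RNAs (snoRNAs) were followed through RNA-seq of B16F10 mouse melanoma as the genes whose name begins with Snord or Snora and whose TPM, a level adjusted for gene length and sequencing depth, was above 0 in at least 3 of the 23 libraries. Of 124 genes with such names among the 47643 in the table, 61 met this rule, 30 with Snord names (C/D box) and 31 with Snora names (H/ACA box). The TPM values themselves chose these genes, so the number of libraries in which they were seen describes the choice and is not a result.

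snoRNAs are short noncoding RNAs of the nucleolus that guide chemical modification of ribosomal RNA by base pairing. C/D box snoRNAs carry a C box and a D box and bring the methyltransferase fibrillarin to the site of a ribose methylation, whereas H/ACA box snoRNAs fold into hairpins followed by the H box and the ACA box and bring dyskerin to a uridine that becomes pseudouridine. In mammals, most are cut out of the introns of host genes, many of which encode ribosomal proteins or serve mainly as snoRNA carriers, and the mature snoRNA has no poly(A) tail. Libraries prepared from poly(A) RNA therefore catch them poorly, and what is read can be the mature RNA, a host transcript that retains the intron, or an unspliced precursor.

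The libraries came from 3 sample types: bulk tumors, tumor cells purified from tumors with magnetic beads (sorted tumor cells), and cultured cells. Tumors were grown under the skin of male C57BL/6 mice aged 6 to 8 weeks, and sorted tumor cells were obtained by collagenase D digestion and depletion of stromal cells. In each sample type, 2 wild-type control libraries stood beside 2 libraries, labeled NR2F6 KO, from cells given the guide RNA sg492 and 2 from cells given sg495, both against Nr2f6, a nuclear receptor gene. Guide RNA labeled with Cy3 was delivered with Cas9 protein, and Cy3-positive cells were then isolated by flow sorting. A further 5 wild-type libraries were labeled IgG control (2) or anti-PD1 (3), without a sample type. The labels do not say which animals or cultures the libraries came from, so p-values measure only the spread between these libraries.

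The targeted gene was examined first. Control bulk tumors held 25.83 and 25.24 TPM of Nr2f6, those given sg492 held 22.31 and 23.31 TPM, and those given sg495 held 17.22 and 15.76 TPM. Control cultured cells held 31.88 and 32.9 TPM, those given sg492 held 26.55 and 31.5 TPM, and those given sg495 held 18.55 and 22.43 TPM. Among sorted cells, the controls stood at 20.32 and 17.73 TPM, the sg492 pair at 19.84 and 25.7 TPM, and the sg495 pair at 10.6 and 12.18 TPM. The sg495 libraries thus lay below control in all 3 sample types, with a log2 fold change of -0.64 ± 0.11 (SE) and a limma adjusted p of 0.0213 in cultured cells, -0.60 ± 0.09 (adjusted p = 0.0865) in bulk tumors and -0.69 ± 0.16 (adjusted p = 0.126) in sorted cells. The libraries labeled sg492 in sorted cells were not below both controls. Melanocyte markers were abundant in all 3 sample types, with a summed TPM of 18254.23 to 22103.0 over 10 genes, led by Tyrp1 or Dct.

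The sequences below, from GENCODE transcripts of GRCm38 (mm10), are those of 6 snoRNAs on which the comparison of sample types turns, chosen after their values were seen, together with the near-identical paralog of Snora73b. Each is written 5′ to 3′ on the transcribed strand. Capitals mark the H box (ANANNA) and the ACA box in the Snora genes and the C box (TGATGA) and D box (CTGA) in the Snord genes.
Snora17: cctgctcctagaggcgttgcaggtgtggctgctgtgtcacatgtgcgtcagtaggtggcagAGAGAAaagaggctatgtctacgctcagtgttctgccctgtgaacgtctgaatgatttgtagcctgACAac
Snora28: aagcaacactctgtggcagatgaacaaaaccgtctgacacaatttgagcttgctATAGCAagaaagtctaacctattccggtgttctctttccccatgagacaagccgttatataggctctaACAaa
Snora57: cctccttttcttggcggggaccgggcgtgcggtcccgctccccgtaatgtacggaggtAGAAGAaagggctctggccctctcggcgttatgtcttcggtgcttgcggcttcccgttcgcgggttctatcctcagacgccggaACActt
Snora73a: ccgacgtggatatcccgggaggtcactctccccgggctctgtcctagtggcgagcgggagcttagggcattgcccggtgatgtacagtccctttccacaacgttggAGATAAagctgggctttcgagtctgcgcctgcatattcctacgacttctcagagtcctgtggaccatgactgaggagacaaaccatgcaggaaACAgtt
Snora73b: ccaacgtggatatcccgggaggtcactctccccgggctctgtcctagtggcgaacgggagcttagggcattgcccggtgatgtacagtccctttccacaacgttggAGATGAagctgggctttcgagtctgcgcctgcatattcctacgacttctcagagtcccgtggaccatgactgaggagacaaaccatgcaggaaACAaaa
Snord16a: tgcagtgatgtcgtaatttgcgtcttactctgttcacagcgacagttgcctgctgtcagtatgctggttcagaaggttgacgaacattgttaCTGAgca
Snord32a: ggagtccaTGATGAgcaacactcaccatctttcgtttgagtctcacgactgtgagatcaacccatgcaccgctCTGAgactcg

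Snora17 lies at chr2:26639190-26639321 on the minus strand and Snora57 at chr19:8888538-8888685 on the minus strand, both outside other genes in this annotation. Snora28 lies at chr12:111540941-111541067 on the plus strand, within Eif5, which encodes a translation initiation factor. It is contained in 2 annotated Eif5 exons. Snora73a at chr4:132352775-132352979 and Snora73b at chr4:132352322-132352526, both on the minus strand, lie in the Rcc1 and Snhg3 genes. Snora73b is intronic there, and Snora73a overlaps an annotated exon of Snhg3 in part. They are equal at 198 of 205 aligned positions (96.6%), so their reads could be split between them and each level is uncertain. Snord16a lies at chr9:64175423-64175521 on the plus strand within Rpl4, in a stretch that is an exon of 1 transcript, and Snord32a lies at chr7:45127382-45127464 on the minus strand in an intron of Rpl13a. Both hosts encode proteins of the large ribosomal subunit.

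The boxes were those of the name. Searched on the transcribed strand, TGATGA occurred in 22 of the 30 C/D members (73.3%) and CTGA in all 30. The unselected C/D genes did not stand apart, with TGATGA in 38 of 54 (70.4%). ACA stood exactly 3 bases from the 3′ end in 26 of the 31 H/ACA members (83.9%) and in 7 of the 9 unselected ones (77.8%), and no H/ACA gene held TGATGA. In Snora17 and Snora28, the last ACA lies 2 bases from the annotated end, and Snord16a holds CTGA but not the exact TGATGA searched. CTGA is short and also occurred in 20 of the 31 H/ACA members (64.5%), so the letters alone do not mark a D box. All 61 members were found in the annotation. For 28 of them the gene lay within an exon of some host transcript, for 26 within an intron and for 3 partly in an exon, and 4 lay outside other genes. Reads from a host exon cannot be told from reads of the snoRNA there.

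Detection fell away at the length of the reads. None of the 35 named snoRNA genes of up to 75 nt, all of the C/D class, was above 0 in any library, against 26 of 37 genes of 76 to 100 nt, 4 of 7 genes of 101 to 120 nt and 39 of 45 genes of 121 to 300 nt. The reads were 75 bases long, and the same held over the whole table, in which 1 of 1023 genes of up to 75 nt was above 0 anywhere. The median length was 90 nt for C/D members, 132 nt for H/ACA members and 74 nt for the 63 unselected genes. Of those 63, 55 were listed at 0 in all 23 libraries. Absence from the members is therefore no evidence that a short C/D snoRNA was missing from the cells.

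**Figure D1:**
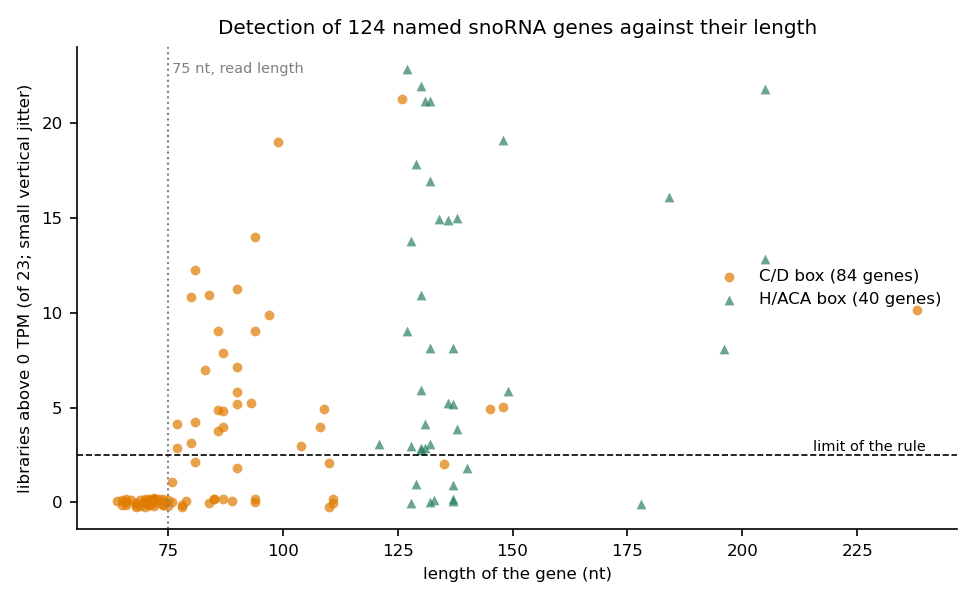
Each point is 1 of the 124 named snoRNA genes, with gene length in nt on the x axis and the number of the 23 libraries above 0 TPM on the y axis, which is the quantity the rule selected on. The 35 genes of up to 75 nt all lie at 0, and the H/ACA genes, all of 121 nt or more, reach up to 23 libraries.

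Members at the limit of the rule ran from low to high values. Among the 9 seen in exactly 3 libraries, Snord47 stood at 80.48, 72.59 and 84.34 TPM and Snord69 at 64.56, 26.22 and 28.45 TPM, while Snora19 reached 0.63, 1.61 and 0.66 TPM, Snora20 2.48, 1.3 and 2.91 TPM, and Snora26 3.38, 4.97 and 0.79 TPM. Just outside it, Snora7a was seen at 2.02 and 11.87 TPM, Snord118 at 2.1 and 2.3 TPM, and Snord88a at 13.29 and 20.36 TPM, the last in the 2 sorted libraries labeled sg492.

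The values stepped in single reads. Among short genes, low TPM in a library fell on multiples of a unit divided by the gene length less 74.5 nt, and the unit was 61.75 to 85.25 in the 18 libraries of the 3 sample types. By this estimate 1 read was worth 1.11 to 1.54 TPM at 130 nt and 11.2 to 15.5 TPM at 80 nt. The unit and the 74.5 nt were chosen to place the most values of short genes, members among them, at 1 or 2 reads. In the 22 libraries with a clear unit, 435 member values came to at most 5 reads, of which 112 came to 1 read. Of the 435, 318 (73.1%) lay within 0.1 of a whole number. An even spread would give 20%, but that reference ignores how the unit was chosen. Values off a whole number, such as 0.17 reads of the 81-nt Snord80 in a bulk tumor, can arise where RSEM divides a read between genes. All 61 members together amounted to an estimated 118.5 to 178.9 reads in a bulk tumor library, 99.5 to 199.2 in a sorted library and 88.6 to 108.8 in a cultured library. A high TPM of a short C/D gene can therefore rest on fewer reads than a low TPM of an H/ACA gene. The deposited values are TPM and the read numbers are estimates, so no count test or counting interval was made from them.

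Few members were seen throughout. Over the 18 libraries, 485 of 1098 member values (44.2%) were above 0, and the median member was seen in 6 libraries. Snora17, Snora28, Snora31 and Snora68, all of the H/ACA class, were above 0 in all 18, and Snora28 was above 0 in all 23. Conversely, 32 members were seen in at most 6 of the 18, and 40 had a median of 0. An estimated 65.7% of all member reads fell on the 10 members with the most reads, led by Snora73b (406.8 of 2240.6 reads over 18 libraries) and Snora17 (241.5 reads).

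By median TPM over the 18 libraries, the 10 leading members were Snora17 (14.07 TPM), Snord16a (14.0), Snora73b (11.83), Snora68 (8.88), Snora28 (6.83), Snord22 (6.29), Snora31 (5.67), Snora64 (4.83), Snora57 (4.38) and Snord45c (4.36). Their ranges overlapped along the whole order, from 3.63 to 36.44 TPM for Snora17 and from 0 to 49.75 TPM for Snord45c. Bulk tumors were led by Snora73b, Snord45c and Snord16a (medians 15.69, 15.47 and 14.18 TPM), sorted cells by Snora17, Snora28 and Snord32a (22.76, 19.18 and 17.44 TPM), and cultured cells by Snord16a, Snora73b and Snord33 (19.92, 14.42 and 6.95 TPM). The highest single values among the 18 libraries belonged to short C/D genes seen in few libraries, such as 82.09 TPM of Snord80 (81 nt) in an sg495 bulk tumor and 80.48 TPM of Snord47 (77 nt), which was above 0 in 2 of the 18 libraries. Both lie in Gas5, a host gene that encodes no protein. A pair of genes carries the name Snord80 (77 and 81 nt), and the shorter sequence is contained in the longer one, so their reads cannot be told apart over that stretch.

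**Figure D2:**
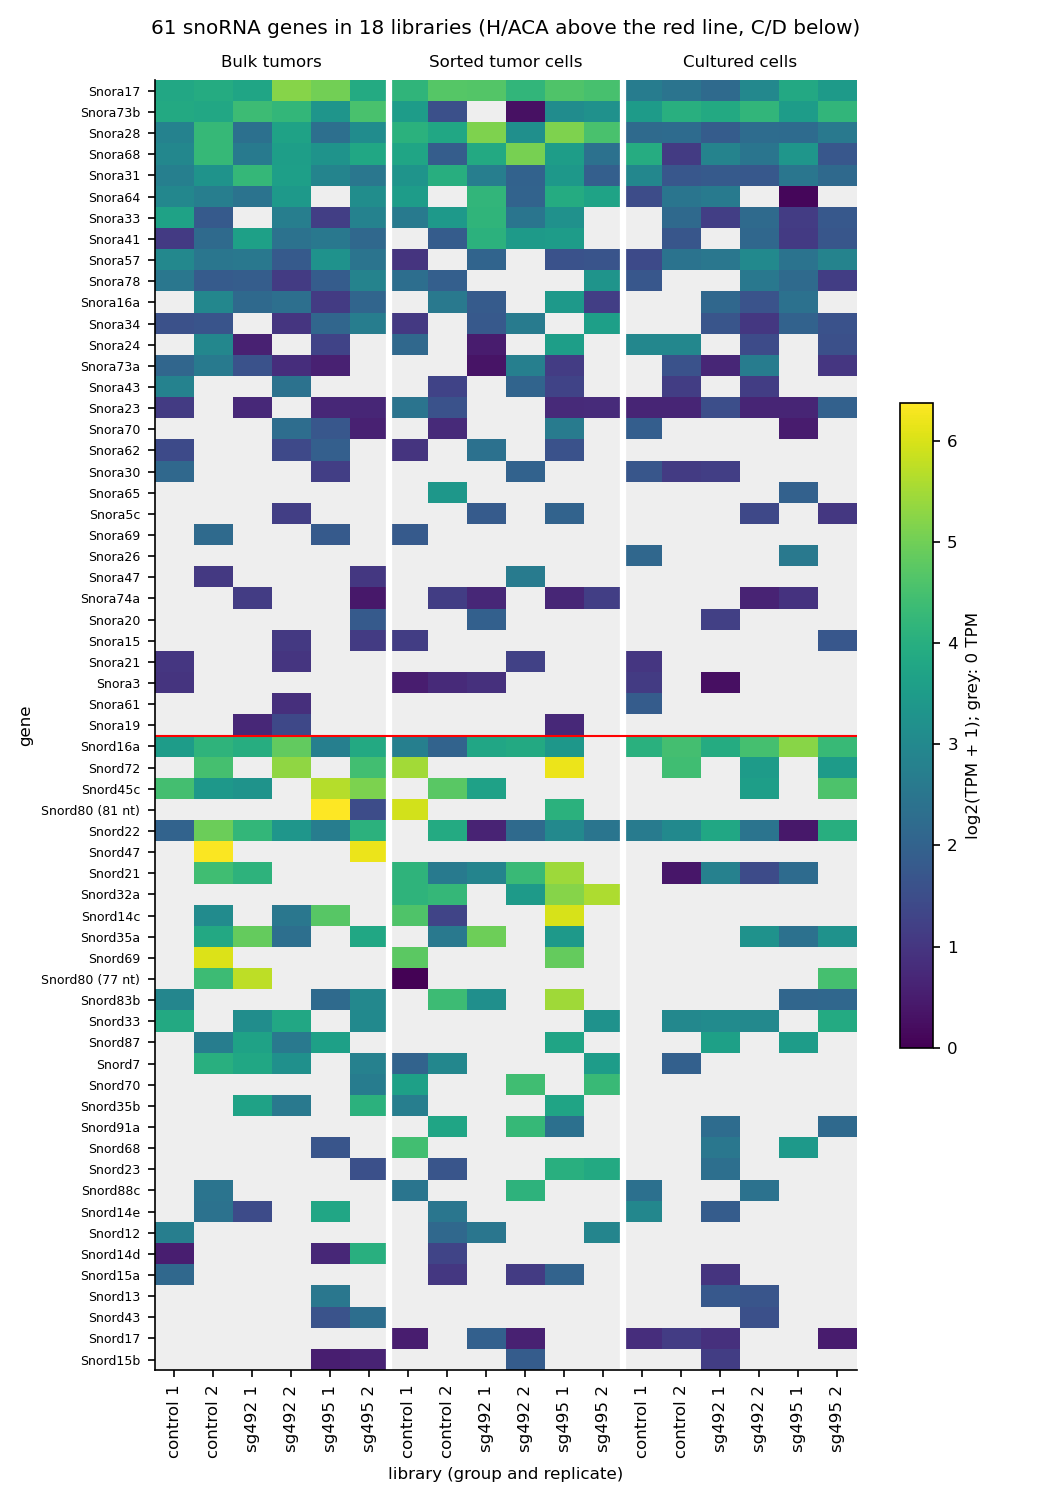
Log2(TPM + 1) of the 61 snoRNA genes (rows, by class and mean) in the 18 libraries (columns, by sample type, guide and replicate), with values of 0 in grey. Snora17, Snora28, Snora31 and Snora68 are colored in every column, whereas 32 genes are grey in at least 12 columns.

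The total was lower on average in cultured cells than in the other sample types. Summed TPM of the 61 members stood at 292.3 ± 90.3 (SD, n = 6) for bulk tumors, 287.8 ± 128.8 for sorted tumor cells and 132.4 ± 28.2 for cultured cells. The lowest bulk tumor, at 160.88 TPM, lay below the highest cultured library, at 180.36 TPM, and the highest value, 530.11 TPM, was that of the first sg495 library of sorted cells. The H/ACA members alone did not overlap. They summed to 91.42 to 132.7 TPM in bulk tumors and 93.24 to 156.8 TPM in sorted cells but to 50.54 to 68.73 TPM in cultured cells. The C/D members summed to 64.54 to 313.6, 77.06 to 373.3 and 32.23 to 118.6 TPM. A read was worth 1.24 to 1.54 TPM at 130 nt in the sorted libraries and 1.12 to 1.24 TPM in the cultured libraries, and in estimated reads the H/ACA members came to 72.6 to 128.6 and 59.8 to 88.5, which overlap. No test was made of a sum over the members. In bulk samples, fewer cells of a type and less RNA per cell cannot be told apart.

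**Figure D3:**
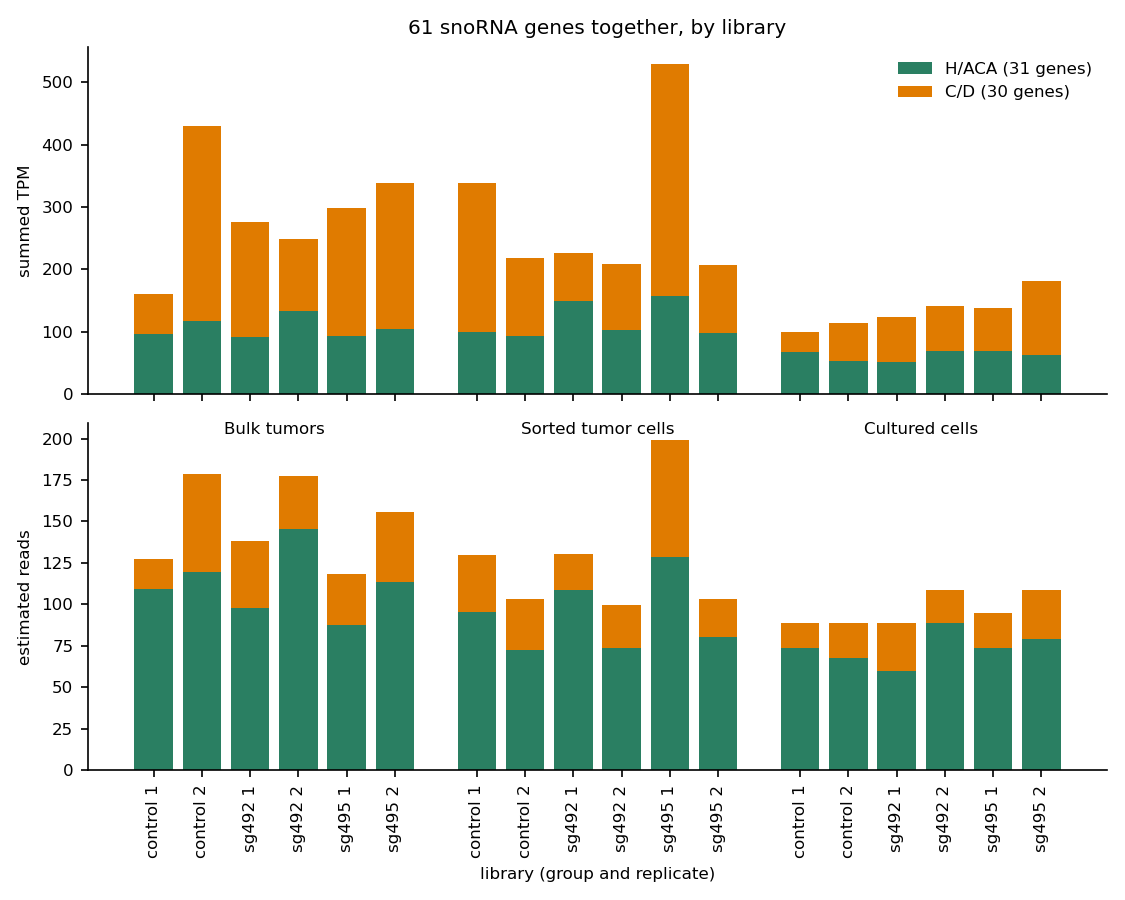
Summed TPM (upper bars) and estimated reads (lower bars) of the 31 H/ACA and 30 C/D members in each of the 18 libraries. The H/ACA part lies at 50.54 to 68.73 TPM in cultured cells and at 91.42 TPM or more in the other libraries, and the C/D part is responsible for the high sums of single libraries.

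By guide, the sums parted from control in cultured cells alone, and with 2 libraries a group that difference was not tested. The cultured controls summed to 99.04 and 113.2 TPM, sg492 to 123.2 and 141.0 TPM, and sg495 to 137.38 and 180.36 TPM, and neither guide overlapped control. The H/ACA members alone overlapped, at 66.81 and 53.27 TPM in control, 50.54 and 68.24 with sg492, and 68.73 and 61.72 with sg495. In estimated reads, all members came to 88.6 and 88.7 in control, 89.0 and 108.7 with sg492, and 95.1 and 108.8 with sg495. In bulk tumors, the controls summed to 160.88 and 430.54 TPM and spanned all 4 edited tumors. In sorted cells, the controls summed to 217.22 and 338.61 TPM, the libraries labeled sg492 to 225.48 and 208.4 TPM, and sg495 to 530.11 and 207.24 TPM. Control cultured cells had 21 members above 0 in each library, against 24 to 28 in the edited cultured libraries. Short genes of any kind ran the other way. Of these, 178 and 170 were above 0 in the controls, 164 and 161 with sg492, and 150 and 159 with sg495.

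Replicate libraries of a group often differed in which snoRNAs they held. In the 9 groups of the 3 sample types, 48.6% (bulk tumors, sg492) to 69.6% (sorted cells, control) of the members seen in either library of a group were listed at 0 in the other, over members of any level. With members and other genes held to the same range, a mean of 1 to 10 TPM in the group, the share was 35.3% (6 of 17, bulk tumors, sg492) to 76% (19 of 25, sorted cells, sg495) for members and 2.13% to 4.76% for other genes. Among genes averaging 1 TPM or more in the sample type, the median absolute difference between 2 libraries on the log2(TPM + 1) scale ran from 0.41 (cultured cells, control) to 2.36 (sorted cells, sg495) for members and from 0.08 to 0.17 for all genes. Over all 61 members, including those at 0 in both libraries, it was 0.95 in the median bulk tumor group, 0.71 in sorted cells and 0.35 in cultured cells. Over members averaging 1 TPM or more it was 1.16, 1.86 and 1.03, so the order of bulk tumors and sorted cells turned. The IgG pair stood further apart: with a mean of 1 to 10 TPM, 9 of 9 members and 16.18% of other genes were at 0 in the other library. Members are short, and the part of length and depth in this spread was not tested.

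**Figure D4:**
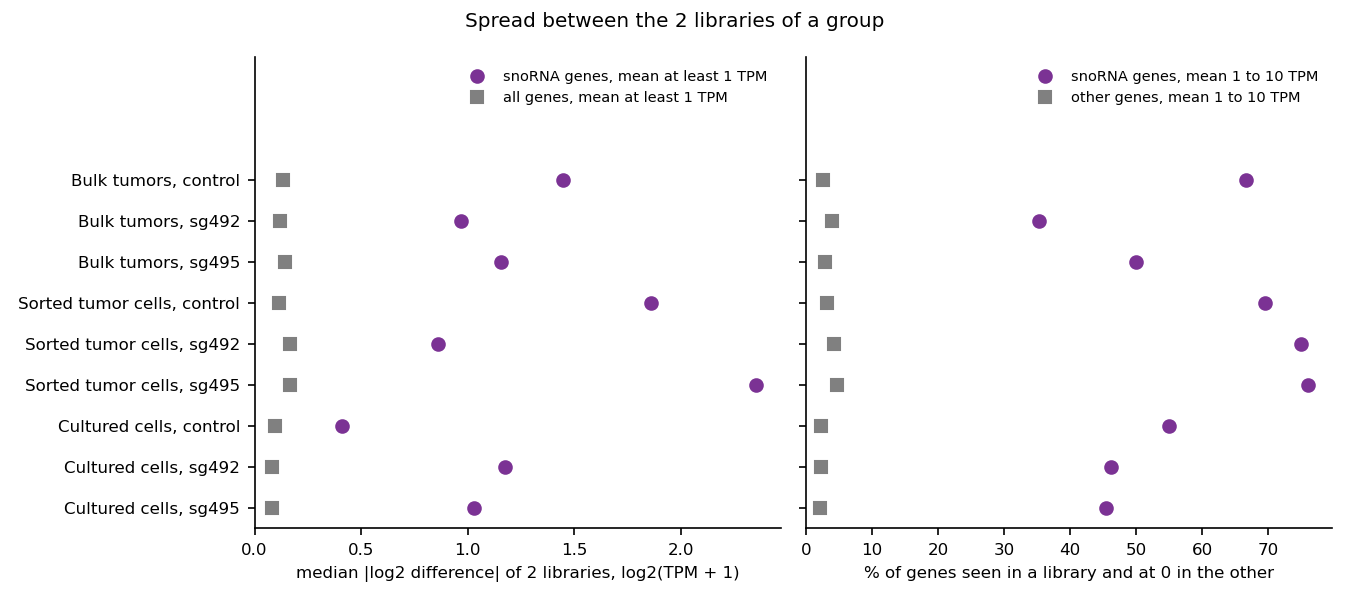
Spread between the 2 libraries of each of 9 groups, for snoRNA members (circles) and all genes (squares). The x axes give the median absolute difference of log2(TPM + 1) for genes averaging at least 1 TPM and, for members and other genes averaging 1 to 10 TPM, the percentage seen in a library but at 0 in the other. Members lie right of the squares in each of the 9 groups, at 35.3% to 76% on the second axis.

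Sample types were compared by limma across all genes that averaged 1 TPM or more, where a call needed an adjusted p under 0.05 together with a change of 1.5-fold. Against cultured cells, sorted tumor cells had 9 of 40 tested members called, 6 higher and 3 lower, or 22.5%, beside 23.6% of all 13152 genes tested. Bulk tumors had 4 of 40 called against cultured cells, all higher, or 10% beside 19.8% of all genes, and 6 of 40 against sorted cells, 3 in each direction, or 15.0% beside 13.6%. The shares of snoRNAs called were thus near or below those of all genes. Some members met the rule of 3 libraries or passed the filter of 1 TPM only through a group compared here, among them Snord32a and Snord23. Of the 32 that met both with either group left out, 4 were higher and 3 lower in sorted than in cultured cells (21.9%, beside 22.8% of the genes that met the filter in the same way). For bulk tumors against cultured cells 4 of 33 were higher (12.1% beside 15.9%), and against sorted cells 3 of 28 were higher and 1 lower (14.3% beside 9.39%). The median log2 fold change of the 40 tested members was 0.47 in sorted against cultured cells, beside -0.002 for all genes. It was 1.16 with the control libraries alone, 0.89 with a pseudocount of 0.1 and 0.84 with a filter at 5 TPM. Over the 32 members that met the rule and the filter with either group left out, it was 0.33. In bulk tumors against cultured cells the median of the 40 was 0.64, beside 0.02 for all genes, and 0.48 over the 33 such members. Over the 40 it was 0.45 to 1.02 when a library was left out, the highest without the first control bulk tumor. In bulk tumors against sorted cells the median of the 40 was 0.05, as for all genes, and -0.21 to 0.40 when a library was left out. Over the 28 such members it was 0.29. The 21 members outside the 40 had a mean below 1 TPM and were not tested. These comparisons share libraries, and growth in the animal, digestion and bead purification cannot be told apart from the sample type.

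Snora17, which guides pseudouridylation, was higher in both tumor-derived sample types. Its TPM was 16.95, 22.76 and 25.02 (lowest, median and highest of 6) in sorted cells, 12.51, 14.07 and 36.44 in bulk tumors, and 3.63, 6.13 and 13.44 in cultured cells. Sorted and cultured cells did not overlap, and bulk tumors overlapped cultured cells only through the highest cultured library, which was an sg495 library. The log2 fold change was 1.54 ± 0.26 (SE, adjusted p = 0.000166) for sorted cells and 1.34 ± 0.26 (adjusted p = 0.000623) for bulk tumors against cultured cells, and each call held in all 20 alternatives, with adjusted p up to 0.00482 and 0.0343.

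Snora28, the H/ACA snoRNA within Eif5, was highest in sorted cells. It ran from 7.96 to 34.58 TPM there (median 19.18), from 3.99 to 18.27 TPM in bulk tumors (median 6.82) and from 2.65 to 4.96 TPM in cultured cells (median 3.68). All 6 sorted libraries were above all 6 cultured ones, with an estimated 2.02 to 4.02 reads per cultured library and 4.9 to 24.21 per sorted library. Sorted cells were higher than cultured cells by 2.09 ± 0.35 on the log2 scale (adjusted p = 0.000184) and bulk tumors lower than sorted cells, at -1.23 ± 0.35 (adjusted p = 0.0119, but 0.674 with the control libraries alone). Against cultured cells, bulk tumors stood 0.87 ± 0.35 higher (adjusted p = 0.0495), a call that was lost in 14 of 20 alternatives (adjusted p 0.0182 to 0.151). Eif5 itself differed by 0.10 ± 0.04 in sorted against cultured cells, which did not reach the fold threshold.

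Snora31, which lies in an intron of Tpt1, was called in both comparisons with cultured cells but with overlapping values. It ran from 4.78 to 18.15 TPM in bulk tumors, from 2.83 to 15.01 TPM in sorted cells and from 2.32 to 6.78 TPM in cultured cells. The log2 fold change was 1.06 ± 0.28 (adjusted p = 0.00562, but 0.308 with the control libraries alone) for bulk tumors and 0.74 ± 0.28 (adjusted p = 0.0333) for sorted cells. The second call was lost in 8 of 20 alternatives, among them without the second control library of cultured cells (adjusted p = 0.107).

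Snora64, within Rps2, was above 0 in 5 sorted, 5 bulk and 4 cultured libraries. Its log2 fold change in sorted against cultured cells was 1.78 ± 0.70 (adjusted p = 0.0395), which was lost in 11 of 20 alternatives and turned to -0.22 with the control libraries alone (adjusted p = 0.918).

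Snora73b, Snora57 and Snord16a were lower in sorted cells than in both other sample types. Snora73b belongs to the U17 family, which is known for a part in the cleavage of ribosomal RNA precursors. It ran from 0 to 10.42 TPM in sorted cells (median 4.74), from 8.96 to 22.33 TPM in bulk tumors (median 15.69) and from 10.26 to 17.5 TPM in cultured cells (median 14.42). Only the highest sorted library, a control at 10.42 TPM, reached the range of the other types. The log2 fold change was -1.94 ± 0.30 against cultured cells (adjusted p = 8e-05), and bulk tumors were higher than sorted cells by 2.08 ± 0.30 (adjusted p = 8.34e-05). With the control libraries alone, neither call held (adjusted p = 0.0741 and 0.0766). Of its hosts, Rcc1, which encodes the exchange factor of the GTPase Ran, was also lower in sorted than in cultured cells, at -0.80 ± 0.05 (adjusted p = 5.57e-08), and Snhg3 stood at -0.37 ± 0.11, short of the fold threshold.

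Snora57 ran from 0 to 3.17 TPM in sorted cells, from 2.51 to 8.55 TPM in bulk tumors and from 1.71 to 7.1 TPM in cultured cells. Sorted cells were lower than cultured cells, at -1.40 ± 0.34 (adjusted p = 0.00256, but 0.0616 with the control libraries alone), and bulk tumors were higher than sorted cells by 1.55 ± 0.34 (adjusted p = 0.00206). In estimated reads the sorted libraries held 0 to 2.97 reads and the bulk tumors 2.99 to 8.85.

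Snord16a, the C/D snoRNA of Rpl4, did not overlap between sorted and cultured cells. It was 0 to 13.7 TPM in sorted cells (median 7.51), 5.73 to 27.81 TPM in bulk tumors (median 14.18) and 14.29 to 36.96 TPM in cultured cells (median 19.92). Sorted cells stood at -1.78 ± 0.46 against cultured cells (adjusted p = 0.0044, but 0.0802 with the control libraries alone). Bulk tumors were higher than sorted cells by 1.22 ± 0.46 (adjusted p = 0.0443), a call lost in 14 of 20 alternatives (adjusted p 0.000262 to 0.209). Rpl4 moved little, by 0.16 ± 0.03 in sorted against cultured cells.

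Snord32a was listed at 0 in all 12 libraries of bulk tumors and cultured cells. The sorted controls held 16.73 and 18.15 TPM, the sg492 pair 0 and 10.04 TPM, and the sg495 pair 36.33 and 47.27 TPM. Outside the sorted libraries it was above 0 in 2 libraries, so it met the rule through the sorted libraries themselves, and its difference from the other sample types is given as a description, with no test and no fold change against libraries at 0. The sorted values correspond to an estimated 2.06, 2.02, 0, 1.0, 4.12 and 5.15 reads, and 2 of the anti-PD1 libraries held 13.2 and 21.37 TPM. Rpl13a, whose intron holds Snord32a, did not follow, at -0.10 ± 0.03 in sorted against cultured cells and -0.00 ± 0.03 in bulk tumors against sorted cells. Its other annotated host Gm45713, at a median of 1.39 TPM over the 18 libraries, was higher in sorted than in cultured cells by 0.60 ± 0.16 (adjusted p = 0.0049).

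Snord23 and Snord7, both of the C/D class, were seen in few libraries. Snord23, in an intron of the ribosome assembly gene Nop53, was above 0 in 3 sorted libraries (2.2, 15.38 and 13.7 TPM, the last 2 with sg495), 1 bulk tumor (1.93 TPM) and 1 cultured library (4.05 TPM). It too met the rule through the sorted libraries, so no test of its difference between sample types is given. Snord7, in an intron of the noncoding AA465934, was above 0 in 4 bulk tumors, 3 sorted and 1 cultured library and was called higher in bulk tumors than in cultured cells (1.98 ± 0.75, adjusted p = 0.0377), a call lost in 12 of 19 alternatives. AA465934 was also higher there, by 0.59 ± 0.24 (adjusted p = 0.0461).

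**Figure D5:**
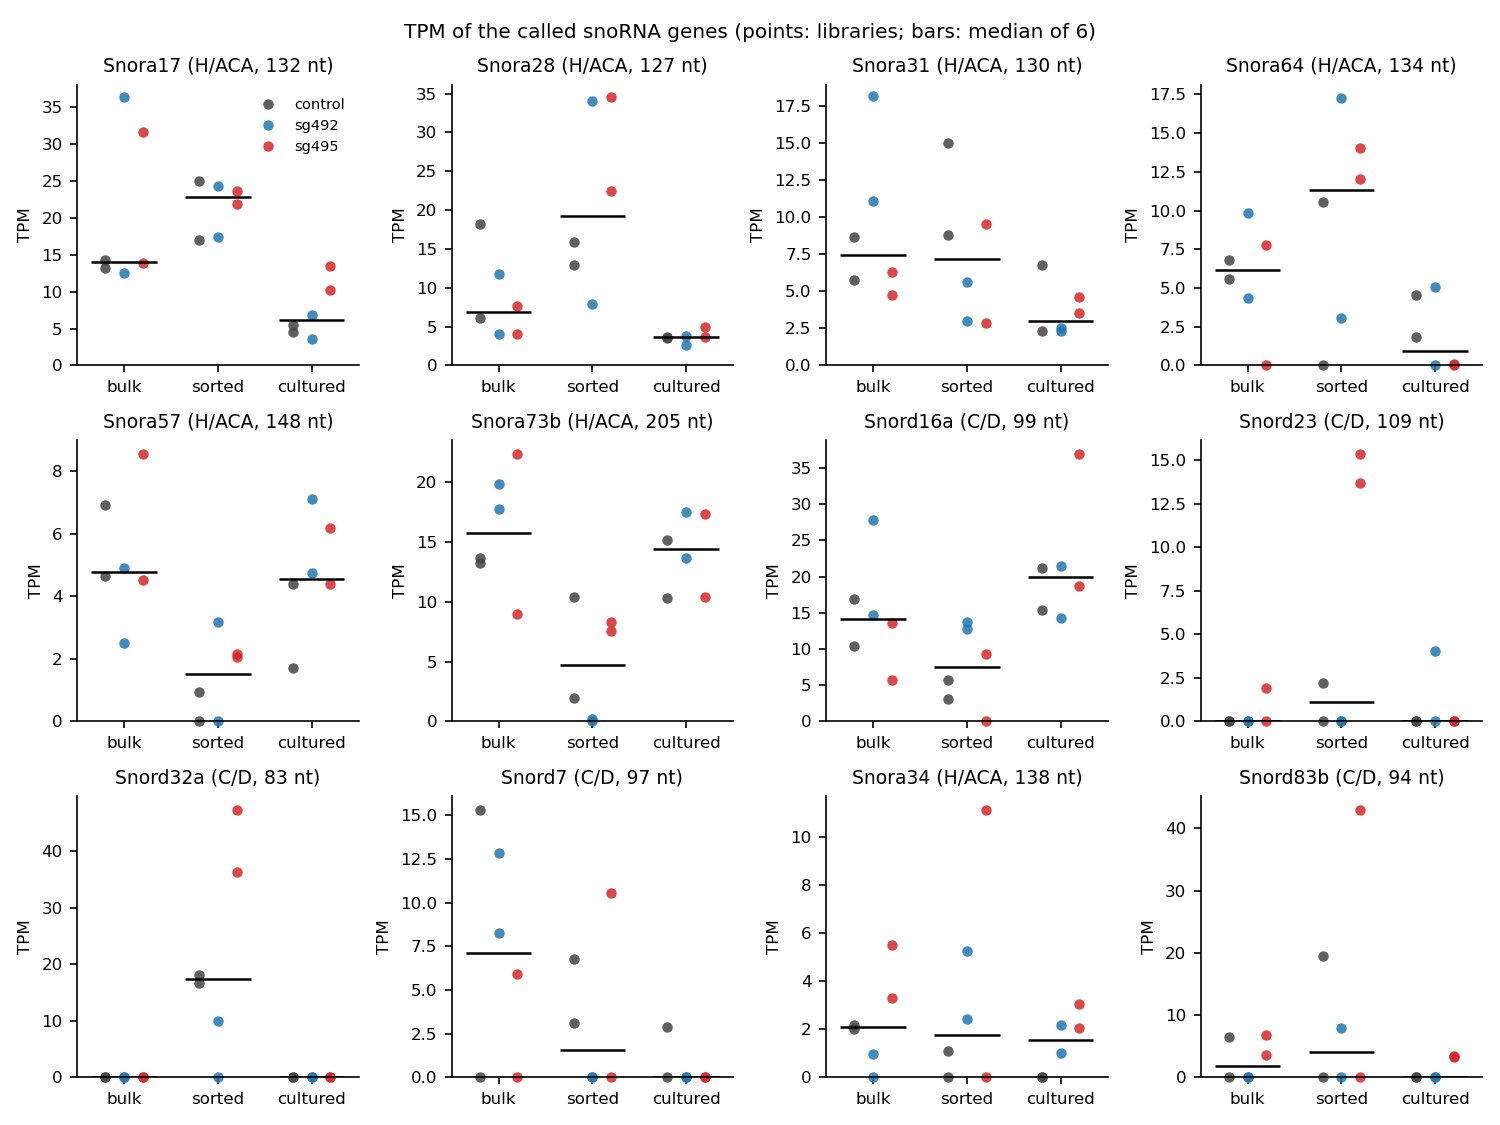
TPM of the 12 snoRNA genes that passed the threshold in any comparison (Snord32a, Snord23, Snora34 and Snord83b, which met the rule or the filter through the libraries where they were high, are a description), by sample type; points are libraries, colored by guide, and bars are medians of 6. Snora17 and Snora28 in sorted cells lie above all cultured libraries, Snord16a lies below them, and Snord32a is at 0 in all 12 bulk and cultured libraries.

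Single libraries decided how many members passed. Without the second sg495 library of sorted cells, 14 members were called between sorted and cultured cells in place of 9. Between bulk tumors and cultured cells, 8 in place of 4 were called without the first sg495 bulk tumor, and 2 without the second control bulk tumor, the second sg495 bulk tumor or the first sg492 cultured library. With control libraries alone, 5 and 1 were called in these comparisons. No share of all genes stands beside these counts, so they describe the members alone.

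Host genes that encode no protein, most of which are known for the snoRNAs in their introns, were mostly higher in both tumor-derived sample types than in cultured cells. Of 16 tested, 9 were higher and 1 lower in sorted than in cultured cells (median log2 fold change 0.71), and 10 were higher and none lower in bulk tumors than in cultured cells (median 0.69). Of all 13152 genes tested, 1925 were higher and 1182 lower in the first comparison (23.6% called), and 2079 and 520 in the second (19.8%). Meg3 and Rian, 2 of these 10, passed the filter only through the bulk tumors. Snhg1, the host of Snord22, ran from 65.33 to 95.71 TPM in cultured cells, from 105.69 to 133.93 TPM in bulk tumors and from 231.78 to 291.84 TPM in sorted cells, with no overlap. Sorted cells exceeded cultured cells by 1.72 ± 0.06 for Snhg1, by 2.16 ± 0.10 for Snhg12, the host of Snora16a and Snora61, and by 0.97 ± 0.05 for Gas5, with adjusted p of 1.35e-10, 1.4e-09 and 4.75e-09. Snord22, within Snhg1, was at a median of 12.66 TPM in bulk tumors, 4.12 TPM in sorted and 6.22 TPM in cultured cells and was not called. Bulk tumors stood higher than sorted cells for 4 of the 16 hosts and lower for 3, beside 1218 and 567 of all 13152 genes. Meg3 and Rian, among these 4, again passed the filter only through the bulk tumors. Of the 14 hosts that passed the filter with either group left out, 2 were higher and 3 lower.

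No gene of the particle proteins passed the threshold. None of the 4 C/D particle genes (Fbl, Nop56, Nop58 and Nhp2l1) or the 4 H/ACA particle genes (Dkc1, Gar1, Nhp2 and Nop10) was called by limma in any of the 3 comparisons of sample types. At an unadjusted p below 0.05 stood 2 to 3 of the C/D and 2 to 4 of the H/ACA genes, with list medians between -0.18 and 0.10. Of 12 assembly factors, 3 were lower in sorted than in cultured cells, namely Shq1, a chaperone of dyskerin (-1.11 ± 0.07), Coil, the scaffold of Cajal bodies (-0.68 ± 0.05), and Znhit3 (-0.67 ± 0.05). In bulk tumors against cultured cells none was called, with 8 at an unadjusted p below 0.05. Among 29 genes of RNA polymerase I and the nucleolus, 2 were higher and 3 lower in sorted than in cultured cells, and 1 was higher in bulk tumors than in cultured cells. Of all genes tested, 23.6% were called in sorted against cultured cells. The share was 19.8% in bulk tumors against cultured cells and 13.6% in bulk tumors against sorted cells. In the same order, 69.1%, 64.3% and 55.6% of all genes had an unadjusted p below 0.05, so the counts at that limit do not set these lists apart.

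Other RNAs without a poly(A) tail included some that were lower in the tumor-derived samples. Of 33 such genes 5 were tested, and none was higher and 2 were lower in sorted than in cultured cells. In bulk tumors 1 was higher and 3 were lower, of which Rn7s1 and Rn7s2 had identical values and count as a single measurement. Of all genes tested, 23.6% were called in sorted against cultured cells and 19.8% in bulk tumors against cultured cells. Rpph1, the RNA of ribonuclease P, fell the furthest, from 14.97 to 32.61 TPM in cultured cells to 2.16 to 7.31 TPM in sorted cells (-2.11 ± 0.25, adjusted p = 7.28e-06) and 0.27 to 3.89 TPM in bulk tumors (-3.24 ± 0.25, adjusted p = 1.59e-07). Of the 9 small Cajal body RNAs, which guide modification of spliceosomal RNAs, only Scarna13 could be tested, and it was lower in sorted than in cultured cells (-0.76 ± 0.25, adjusted p = 0.0179). Bulk tumors did not follow. Scarna13 was higher there than in sorted cells (1.14 ± 0.25, adjusted p = 0.00252 by limma) and stood at 0.37 against cultured cells, not called. Replication-dependent histone genes, whose messages end in a stem-loop, were higher in sorted than in cultured cells for 10 of 15 tested and lower for none, and 5 were higher in bulk tumors against cultured cells. Of the 10 and 13 that passed the filter with either group left out, 6 and 4 were higher. Among all genes that passed in that way, 22.8% and 15.9% were called in either direction.

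Marker genes of cells other than melanoma stood high in the bulk tumors. All 11 tested leukocyte genes and all 8 tested fibroblast genes were higher in bulk tumors than in cultured cells and than in sorted cells, but 7 and 4 of them passed the filter only through the bulk tumors. Leukocyte markers summed to 424.4 to 946.45 TPM in bulk tumors (18 genes, led by Lyz2), 7.62 to 17.2 TPM in sorted cells and 4.98 to 8.93 TPM in cultured cells, and 5 of them were at 0 in all sorted libraries and 11 in all cultured libraries. Fibroblast markers summed to 395.15 to 1091.07 TPM in bulk tumors (10 genes, led by Col3a1), 4.45 to 7.0 TPM in sorted cells and 10.31 to 15.47 TPM in cultured cells, and 1 and 3 of them were at 0. Their part in the snoRNA levels of bulk tumors was not tested. Of the melanocyte genes, 2 of 10 were higher and 1 lower in sorted than in cultured cells, with the same counts in bulk tumors against cultured cells. Of all genes, 23.6% were called in sorted against cultured cells. Bulk tumors had 19.8% called against cultured cells and 13.6% against sorted cells.

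The guides were compared with control within each sample type. In cultured cells, sg495 had 3 of 30 tested members called, all higher (10%), beside 2.77% of all genes. Snora34 and Snord83b, 2 of the 3, averaged 0.8 and 0 TPM over the 4 cultured libraries without sg495 and so passed the filter of 1 TPM only through the libraries where they were high. Of the 22 members that met the rule and the filter with either group left out, 1 was called (4.55%), namely Snora17, beside 2.63% of the genes that met the filter in the same way. In bulk tumors and sorted cells sg495 had none called, among 37 and 39 tested members, beside 0.0293% and 0.899% of all genes. These sg495 shares moved with the fit. In bulk tumors 3 genes were higher and 1 lower, against 361 and 34 when all 18 libraries were fitted and 178 and 12 without the first control bulk tumor. In sorted cells 78 were higher and 38 lower, against 250 and 149 when all 18 were fitted, 3 and 1 without the first sg495 library and 4 and 1 without the second. In cultured cells 88 were higher and 244 lower, against 36 and 129 without the first sg495 library. sg492 had none called in any sample type, beside 0% of all genes in bulk tumors, 0.0388% in sorted cells and 0.05% in cultured cells. Among members that met the rule and the filter with either group left out, none was higher or lower at an unadjusted p below 0.05 by the same limma fits with sg495 in bulk tumors (of 27) and sorted cells (of 31), and 2 of 22 were higher in cultured cells. With sg492, 3 were higher and 1 lower of 31 in bulk tumors, 1 and 3 of 32 in sorted cells, and 2 were higher of 24 in cultured cells. These are 0%, 0% and 9.09% with sg495 and 12.9%, 12.5% and 8.33% with sg492, beside 15.5%, 15.4% and 27.8%, and 8.14%, 7.02% and 10.4%, of the genes that met the filter in the same way. Single libraries moved such counts over all tested members. With sg495 in bulk tumors 2 were higher and 1 lower, against 2 and 6 without the first control library. In sorted cells 1 was higher and 1 lower, against 4 and 5 without the first sg495 library and 6 and 3 without the second. With sg492 in bulk tumors 3 were higher and 2 lower, against 1 and 6 without the first control library. The median log2 fold change of the tested members with sg495 also turned on single libraries. It was 0.53 in cultured cells (0.19 to 1.04 when a library was left out, 0.05 in the fit of all 18), 0.35 in sorted cells (-0.47 without the first sg495 library, 1.08 without the second) and -0.02 in bulk tumors (-0.65 without the first control, 0.72 without the second), beside -0.001, -0.04 and 0.06 over all genes. The 3 comparisons share no libraries, but sg495 and sg492 share their controls within a sample type.

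The 3 calls in cultured cells stood on few reads. Snora17 reached 13.44 and 10.18 TPM with sg495, against 5.45 and 4.48 TPM in the controls, and stood at 3.63 and 6.81 TPM with sg492. These are an estimated 11.94, 9.04, 5.05, 3.99, 3.02 and 6.05 reads, and sg495 did not overlap control. The log2 fold change with sg495 was 1.10 ± 0.26 (adjusted p = 0.0482), and the call was lost in 10 of 13 alternatives (adjusted p 0.0348 to 0.22). Snora34, in an intron of Kansl2, was listed at 0 in both controls and was 3.04 and 2.05 TPM with sg495 and 2.19 and 1.03 TPM with sg492, or 2.98, 2.01, 2.02 and 1.01 reads. Snord83b, in an intron of Rpl3, was listed at 0 in control and sg492 and was 3.32 and 3.36 TPM with sg495, which is an estimated 1.0 and 1.01 reads. Since both passed the filter through the sg495 pair, their values are a description and no p is given. Neither was called in the fit of all 18 libraries. Snora34 was also lost in each fit without 1 of the 4 libraries compared, and without either sg495 library Snord83b fell below the filter and was not tested. Kansl2 and Rpl3 were not called (0.17 ± 0.05 and 0.00 ± 0.03). In bulk tumors, Snora34 was 2.0 and 2.16 TPM in control and 3.3 and 5.52 TPM with sg495, again without overlap but not called, and in sorted cells the groups overlapped, as they did for Snord83b in both.

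Whether the sg495 effect differed between sample types was examined with an interaction term. None of 40 members was called for sorted minus cultured cells, beside 2.51% of all genes, or for bulk tumors minus cultured cells, beside 1.76%. At an unadjusted p below 0.05, 2 members were higher and 1 lower in the first (7.5% of those tested, beside 18.7% of all genes) and none in the second (beside 15.3%).

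Among members whose 2 guide libraries lay beyond both controls, those with the largest change in each direction were as follows. In bulk tumors they were Snord80 (81 nt; 0 and 0 TPM in control, 82.09 and 1.77 TPM with sg495), which was above 0 in only 2 libraries outside the sg495 pair and met the rule through that pair, and Snora73a (3.32 and 5.19 TPM in control, 0.5 and 0 TPM with sg495), and with sg492 Snord35b (0 and 0 TPM, then 11.68 and 5.0 TPM) and Snord45c (21.37 and 9.57 TPM, then 8.72 and 0 TPM). In sorted cells they were Snord23 (0 and 2.2 TPM in control, 15.38 and 13.7 TPM with sg495) and Snora23 (4.44 and 2.07 TPM, then 0.69 and 0.72 TPM), and in the libraries labeled sg492 Snora41 (0 and 2.63 TPM, then 16.24 and 10.17 TPM) and Snord14c (23.65 and 1.48 TPM, then 0 and 0 TPM). In cultured cells they were Snord35a, from an intron of Rpl13a (0 and 0 TPM in control, 4.19 and 8.48 TPM with sg495) and Snora24, within the noncoding Snhg8 (6.77 and 6.71 TPM, then 0 and 1.96 TPM with sg495 and 0 and 1.73 TPM with sg492), and with sg492 Snord21 (0 and 0.3 TPM, then 5.94 and 1.74 TPM). Snord80, Snora73a, Snord23, Snora23, Snora24 and Snord21 averaged less than 1 TPM over the libraries of the sample type outside the group where they were high, so their values are a description. Of the others, Snord35b, Snord45c, Snora41, Snord14c and Snord35a, none passed the threshold (adjusted p 0.123 to 0.771 by limma).

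The partner genes gave no call with either guide. In the 6 comparisons of a guide with control, none of the particle proteins, assembly factors, nucleolar genes, noncoding hosts, small Cajal body RNAs, other RNAs without a poly(A) tail, histone genes or melanocyte markers was called by limma. At an unadjusted p below 0.05 stood 3 C/D particle, 3 H/ACA particle and 19 nucleolar genes with sg495 in cultured cells, against 0 to 1, 0 to 4 and 0 to 6 in the other 5 comparisons. Of all genes, 27.8% stood there with sg495 in cultured cells and 7.13% to 15.7% in the other 5. In cultured cells with sg495, the 4 C/D and 4 H/ACA particle genes and 26 of 29 nucleolar genes had a positive log2 fold change, with medians of 0.26, 0.22 and 0.17. With sg492, which shares the controls, 3 of 4 C/D particle, 4 of 4 H/ACA particle and 25 of 29 nucleolar genes were positive as well, with medians of 0.08, 0.22 and 0.06, and the 4 H/ACA genes had an unadjusted p below 0.05. In sorted cells with sg495, the particle genes were all negative, with medians of -0.15 and -0.19. The difference of the sg495 effect between sorted and cultured cells was called, lower, for Dkc1, which encodes dyskerin (-0.71 ± 0.17, adjusted p = 0.0443), for 2 assembly factors (Nolc1 and Tcof1) and for 3 nucleolar genes (Utp20, Nop2 and Polr1a). Between bulk tumors and cultured cells it was called, lower, for Nop58 (-0.65 ± 0.10, adjusted p = 0.00881) and Snhg1 (-0.67 ± 0.14, adjusted p = 0.0353). The same difference was called, higher, for the leukocyte markers Adgre1 (1.31), Ptprc (1.46) and Coro1a (1.64) and the fibroblast marker Postn (1.47), with adjusted p of 0.0307 to 0.0457, and their part in it was not tested. Of the cell type markers, Postn was lower and Lyz2 higher in cultured cells with sg495 (-0.70 ± 0.11, adjusted p = 0.0135, and 0.97 ± 0.19, adjusted p = 0.0289). In bulk tumors, all 15 tested leukocyte markers and all 10 fibroblast markers had positive log2 fold changes with sg495 (medians 0.93 and 0.71), with none called by limma (12 and 8 at an unadjusted p below 0.05), and their part in the snoRNA values was not tested.

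The 5 IgG and anti-PD1 libraries stood apart from the others in cell type markers. Leukocyte markers summed to 10866.37 and 10480.04 TPM with IgG and to 6722.72, 9663.7 and 9788.65 TPM with anti-PD1, far above the bulk tumors. Melanocyte markers summed to 4914.32 and 2186.54 TPM with IgG and to 6229.92, 6081.06 and 4202.26 TPM with anti-PD1, below every library of the 3 sample types. With anti-PD1 against IgG the median log2 fold change was -0.52 over 18 leukocyte and 0.83 over 10 melanocyte markers, with none called by limma (1 and 4 at an unadjusted p below 0.05), and their part in the snoRNA values was not tested. None of 32 tested members was called, as none of all 13418 genes was (0%), with 964 genes (7.18%) at an unadjusted p below 0.05. Of the 11 members that met the rule and the filter with either group left out, none was higher and 1 lower with anti-PD1 at that limit (9.09% beside 6.72% of such genes). The members summed to 364.44 and 317.63 TPM with IgG and to 318.04, 284.1 and 241.41 TPM with anti-PD1. Their median log2 fold change pointed the other way, at 0.88 over the 32 tested, of which 21 were positive (0.46 to 1.63 when a library was left out), beside -0.04 over all genes, and was 0.07 over those 11. The second IgG library had 5 members above 0 and no clear unit per read, against 16 to 26 members in the other 4, and 1 read was worth 1.61 to 2.73 TPM at 130 nt in those 4.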

How the data were processed

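RNA-seq of B16F10 melanoma was used from 18 libraries of 3 sample types and 5 libraries labeled IgG control or anti-PD1. The authors trimmed reads with Cutadapt 2.3, aligned them to mm10 with STAR 2.7.0d and quantified genes with RSEM 1.3.1, and they deposited TPM to 2 decimals for 47643 genes. The libraries each sum to 999999 to 1000001 TPM. TPM carry no depth, so reads were estimated from the steps of low values, with no clear step in 1 library.

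Genes averaging 1 TPM or more over the libraries fitted entered limma 3.58.1 (R 4.3.3) as log2(TPM + 1), with an expression trend. Genes that pass this filter only through the group where they are high were identified by leaving out each group in turn. Guides were fitted within a sample type (6 libraries) and sample types over all 18, with guides weighted equally. P-values are 2-sided and Benjamini-Hochberg adjusted over all genes tested. Fold changes are on the log2(TPM + 1) scale and understate changes of low genes. The DESeq2 test that the authors used on counts was not repeated. The fits were tested on simulated data. Gene positions, lengths and sequences came from GENCODE M21 (GRCm38), which holds 47224 of the genes. Tables were made in Python 3.11.15 (pandas 2.3.3) and figures with matplotlib 3.10.9.

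The genes named were the 10 members with the highest medians, the 3 highest of each sample type, every member called, the largest change in each direction per guide and sample type with both libraries beyond both controls, up to 3 genes on either side of the limit of 3 libraries, genes of hand-written lists (particle proteins, assembly factors, nucleolar genes, noncoding hosts, small Cajal body RNAs, other RNAs without a poly(A) tail, histone genes, and leukocyte, fibroblast and melanocyte markers), host genes and Nr2f6. The genes of highest single TPM (Snord47) were named after their values were seen. Snord69, also at the limit of the rule, was named outside these rules. The members and lists were chosen with earlier results of these data known.

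Alternatives were a pseudocount of 0.1, median-of-ratios scaling, no filter, a filter at 5 TPM, a replicate block, a fit of all 18 libraries, eBayes without a trend, control libraries only, no fold threshold and each library left out in turn. A pseudocount of 1 estimated read for the members, and a block with exchanged numbers, were added after seeing the data.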

Additional observations from a re-analysis of the deposited data

How the results depend on the processing

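The counts of called snoRNAs are small, and a change of 1 or a few genes can move them by over 1.5 times. With sg495 in sorted cells, 1 member (Snord23, which passed the filter through the sg495 pair) was called in the fit of all 18 libraries and with a pseudocount of 1 estimated read, in place of 0, and the difference of the sg495 effect between sorted and cultured cells also gave 1 with that pseudocount. With sg495 in cultured cells, 1 was called with a filter at 5 TPM and 0 in the fit of all 18 libraries, in place of 3. With sg492 in cultured cells, no filter gave 1 in place of 0. Control libraries only gave 5 in place of 9 for sorted against cultured cells and 1 in place of 4 for bulk tumors against cultured cells, where no filter gave 2. Snora64 in sorted against cultured cells reversed to -0.22 with control libraries only. Leaving out each library gave 7 to 14 calls for sorted against cultured cells, 2 to 8 for bulk tumors against cultured cells, 5 to 8 for bulk tumors against sorted cells, 1 in each case for sg495 in cultured cells, and 0 to 1 for the other guide comparisons and both differences of effects, except sg492 in cultured cells with 0. Where a guide group was left with 1 library, it was assumed to vary like the others. Of the 100 counts under the other alternatives, 90 stayed within 1.5 times, and of 172 single values 34 fell short of the threshold and 1 reversed. No share of all genes stands beside these counts of members, and the causes were not tested.

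The replicate block gave 7 calls in place of 0 for anti-PD1 against IgG, with numbers that pair 2 of the 3 anti-PD1 libraries and 1 residual degree of freedom, and changed no other count by over 1.5 times. With sg495 in cultured cells it kept 3 calls, with Snora24 (lower; 0.92 TPM on average without the controls, below the filter) in place of Snora17. Same-numbered libraries of a sample type did not deviate together (Pearson r from -0.126 to 0.051 over all genes tested). Whether same-numbered libraries share an animal, a culture or a batch is not in the labels, and these values cannot decide it. For sg492 in bulk tumors, where r was -0.126, a block with exchanged numbers gave 0 calls.

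Mean summed TPM of each sample type kept within 1 SD of its 6 libraries under median-of-ratios scaling. Leaving out Snora17 or a library could not have moved it by 1 SD, so these settings decide nothing. Snora17 averaged 20.32, 21.55 and 7.33 TPM in bulk tumors, sorted cells and cultured cells, and a mean of 6 moves by less than 1 SD without 1 of them. The spread between replicates over all members was 0.949, 0.714 and 0.349 in bulk tumors, sorted cells and cultured cells. With a pseudocount of 0.1 it was 1.23, 1.23 and 0.42, and over members averaging 1 TPM or more it was 1.16, 1.86 and 1.03. Depth limits every value: 1 read is 1.11 TPM or more at 130 nt and 11.2 TPM or more at 80 nt.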

Other observations

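Beyond the named genes, the annotation holds 1507 snoRNA genes of any name that are in the table, and 260 of them were above 0 in some library and 167 in at least 3. None of the 117 of up to 75 nt was above 0, as for the named genes, and 59 of 342 genes of 76 to 100 nt, 13 of 138 genes of 101 to 120 nt and 187 of 908 genes of 121 to 300 nt were.

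Among the other RNAs without a poly(A) tail, Rn7s1, a gene of the signal recognition particle RNA, was at 14.03 to 31.17 TPM in bulk tumors, 20.32 to 37.38 TPM in sorted cells and 29.26 to 50.76 TPM in cultured cells. Rn7s1 and Rn7s2 had the same fitted values, -0.74 ± 0.18 on the log2 scale in bulk tumors against cultured cells (adjusted p = 0.00296, limma), and their reads cannot be told apart. Rn7sk, the RNA that holds the transcription elongation factor P-TEFb inactive, was 0.68 ± 0.20 higher in bulk tumors (adjusted p = 0.00961). The histone gene Hist1h2bc ran from 92.84 to 181.58 TPM in sorted cells, from 46.67 to 63.29 TPM in bulk tumors and from 22.17 to 35.51 TPM in cultured cells, with no overlap.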
